A study of Mus musculus with 18 samples.

Results

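The basement membrane genes described here are 8 named genes: Col4a1, Col4a2, Lama1, Lamc1, Nid1, Hspg2, Sparc and Serpinh1. They were chosen from a list of endoderm matrix genes with their RNA values already known, namely a gain in Trim28-knockout ES3 cells and their change in fibroblasts, so the values of both contrasts are a description and carry no test. All 8 were found among 17818 symbols of the ES table and among 17813 symbols of the fibroblast table. RNA was compared in 4 libraries. ES3 cells are an embryonic stem (ES) cell line of strain C57BL/6, grown on gelatin with serum and leukaemia inhibitory factor (LIF). The wild-type ES3 library came from cells cultured for 4 days, and the knockout ES3 library from cells taken 4 days after a Cre recombinase that 4-hydroxytamoxifen (4-OHT) switches on. Mouse embryonic fibroblasts (MEFs), also C57BL/6, were sampled by the same scheme, with 5 days in place of 4. The labels do not say whether the wild-type cells carried the Cre or were given 4-OHT. Duplicate cultures were pooled before RNA extraction, which leaves 1 library per condition. No spread between replicates and no p-value can therefore be given, and a gene is called higher or lower by a ratio of at least 2-fold alone. TRIM28, also called KAP1, is recruited to chromatin by zinc finger proteins and in turn brings in the enzymes that write the repressive histone mark H3K9me3.

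Basement membranes are thin sheets of matrix under epithelia. Laminin trimers polymerise on the cell surface, a network of collagen IV forms beside them, and nidogen and the proteoglycan perlecan tie both networks together. In the early mouse embryo the primitive endoderm and its derivatives, above all the parietal endoderm that lays down Reichert's membrane, make basement membrane in large amounts. Among the 8 genes, Col4a1 and Col4a2 encode the chains of the common form of collagen IV, Lama1 and Lamc1 encode the alpha 1 and gamma 1 chains of laminin, Nid1 encodes nidogen-1 and Hspg2 encodes perlecan. Sparc encodes a secreted glycoprotein that binds collagen, and Serpinh1 encodes HSP47, the chaperone of the endoplasmic reticulum that is specific for procollagen.

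Start windows of 6 of the 8 genes were found among RefSeq sequences of build GRCm38.p6, each reaching from 250 bases before to 50 bases after the gene start. Lama1 and Lamc1 are not shown. The collagen IV pair is shown first because its genes had the largest ES3 ratios and lie head to head. Their windows overlap by 78 bases, which are the same stretch of the genome read from opposite strands. In the deposited mm9 coordinates the starts lie at 11312826 for Col4a1, on the minus strand, and at 11312805 for Col4a2, on the plus strand of chromosome 8, so that the gene models overlap by 22 bp. The shared stretch is given on the plus strand, at chr8:11312777-11312854 of GRCm38.p6. Serpinh1 (chr7:99353190-99353489, minus strand) and Sparc (chr11:55420031-55420330, minus strand) are shown as genes with large ES3 ratios, and Hspg2 (chr4:137468553-137468852, plus strand) as the gene with the smallest. Capitals mark the motifs searched on both strands, all of them GC boxes in the sequences shown, and the Sparc window holds none.
Col4a1 and Col4a2 shared stretch: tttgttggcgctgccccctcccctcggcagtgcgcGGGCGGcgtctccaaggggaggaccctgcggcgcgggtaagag
Serpinh1: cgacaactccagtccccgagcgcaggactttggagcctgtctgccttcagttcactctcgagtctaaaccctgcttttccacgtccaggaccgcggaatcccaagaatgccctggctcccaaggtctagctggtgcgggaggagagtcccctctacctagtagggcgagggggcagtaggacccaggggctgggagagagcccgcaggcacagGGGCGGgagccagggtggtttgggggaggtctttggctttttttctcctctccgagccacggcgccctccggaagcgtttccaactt
Sparc: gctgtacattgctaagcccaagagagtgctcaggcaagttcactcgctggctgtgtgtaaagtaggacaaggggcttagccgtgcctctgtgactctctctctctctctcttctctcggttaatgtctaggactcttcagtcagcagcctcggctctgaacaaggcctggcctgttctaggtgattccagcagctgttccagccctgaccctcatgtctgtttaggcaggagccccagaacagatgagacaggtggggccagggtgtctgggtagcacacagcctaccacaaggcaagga
Hspg2: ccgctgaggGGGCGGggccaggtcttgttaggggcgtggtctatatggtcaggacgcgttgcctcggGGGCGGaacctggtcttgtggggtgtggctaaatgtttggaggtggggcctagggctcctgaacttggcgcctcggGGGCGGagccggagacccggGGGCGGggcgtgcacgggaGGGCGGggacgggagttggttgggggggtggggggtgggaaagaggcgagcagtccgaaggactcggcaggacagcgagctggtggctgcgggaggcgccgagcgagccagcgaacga

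The motifs were GATA (any of AGATAA, the variant AGATAG, the variant TGATAA and the variant TGATAG), SOX (ACAATG, the variant ACAATA), the GC box (GGGCGG), the CCAAT box (CCAAT), the TATA box (TATAAA) and a heat shock element (GAA, any 2 bases, TTC). None of these overlap in the windows printed. A GC box was found in 5 of the 6 windows, all but that of Sparc, against 35.7% of 32851 start windows of all genes. Hspg2 held 5 of them and Col4a2 held 3. The GC box of the shared stretch begins at position 8 of Col4a2 and, on the other strand, at position 10 of Col4a1, counted with the gene start as the first base; it is a single site. A CCAAT box stood in the windows of Col4a1, Col4a2 and Nid1, against 37.4% of all windows. The letters of the GATA motif, present in 29.8% of all windows, the SOX motif (19.7%), the TATA box (13.6%) and the heat shock element (7.86%) were in none of the 6. Base composition varied among the 6 windows, from 4 CpG and 55.3% G and C for Sparc to 37 CpG and 74.0% for Col4a1. The medians over all windows were 7 CpG and 52.7%.

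In ES3 cells all 8 genes stood above 1 RPKM in both libraries (RPKM is a read count scaled by transcript length and by library size), and all 8 stood higher in the knockout. Of the 8, 6 were at least 2-fold higher and none was at least 2-fold lower. A gene counted as measured when 1 or both of its values reached 1 RPKM, and of all measured genes 12.5% passed 2-fold upwards and 3.18% downwards. By any amount, 6665 of the 12024 measured genes stood higher in the knockout. After a centring by gene span, explained with the fibroblast values, 5 of the 8 were higher and none was lower, against 10.7% and 3.93%. The members were chosen on this contrast, so nothing is read from that difference. The median log2 ratio of the members was 3.82, against 0.08 over 12024 measured genes. Ratios are log2((knockout + 1)/(wild type + 1)) of RPKM, a scale that understates the change of low genes.

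**Figure D1:**
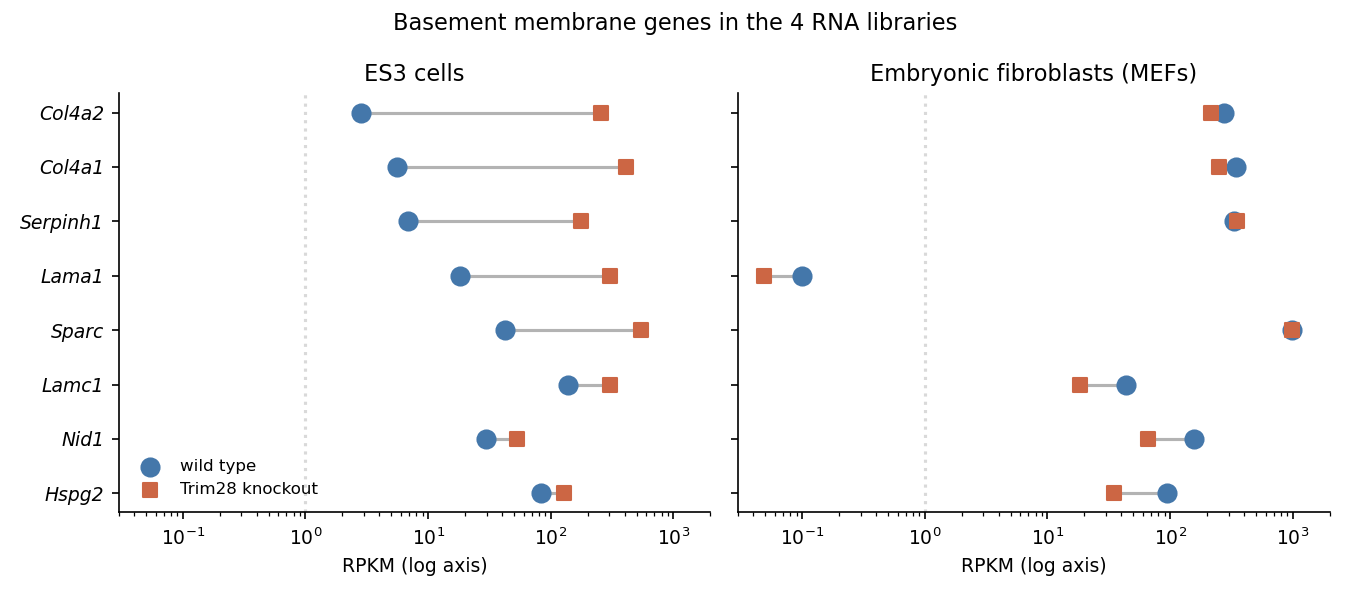
RPKM of the 8 genes on a log axis in the 4 RNA libraries, ES3 cells on the left and MEFs on the right, with circles for wild type and squares for the Trim28 knockout; each point is 1 library and the dotted line marks 1 RPKM. In ES3 cells every square lies to the right of its circle, while in MEFs Lamc1, Nid1 and Hspg2 shift to the left, Sparc and Serpinh1 barely move, and Lama1 sits below the dotted line.

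The network-forming collagen differed most. Col4a2 (NM_009932, ENSMUSG00000031503; mm9 chromosome 8, 11312805 to 11449287) had 2.83 RPKM in the wild-type and 257 RPKM in the knockout ES3 library. Col4a1 (NM_009931, ENSMUSG00000031502; chromosome 8, 11198423 to 11312826) stood at 5.52 and 409 RPKM. These were the ratios ranked 1 and 2 of all measured genes, 90.8-fold for Col4a2 and 74.1-fold for Col4a1 without a pseudocount. Col4a1 was the more abundant chain in both libraries, at 1.95 times Col4a2 in wild type and 1.59 times in the knockout. In wild type 42.3% of measured genes had a lower level than Col4a1. In the knockout 99.5% did.

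Serpinh1 (NM_001111044, ENSMUSG00000070436; chromosome 7, 106493946 to 106501624), whose product folds the collagen, had 6.82 RPKM in the wild-type library and 177 RPKM in the knockout library, a log2 ratio of 4.51 and rank 15 among measured genes. Its other transcripts, NM_001111043 (6.38 and 171 RPKM) and NM_009825 (6.24 and 162 RPKM), had log2 ratios of 4.54 and 4.50, and the 3 share most of their sequence. Relative to Col4a1 its level fell, from 1.23 times that of Col4a1 in wild type to 0.432 times in the knockout. Sparc (NM_009242, ENSMUSG00000018593; chromosome 11, 55208002 to 55233582) went from 42.1 to 544 RPKM (log2 ratio 3.66, rank 43) and was the most abundant of the 8 in the knockout.

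The laminin chains were unequal in wild type and nearly equal in the knockout. Lama1 (NM_008480, ENSMUSG00000032796; chromosome 17, 68046605 to 68171985) went from 18.1 to 302 RPKM (log2 ratio 3.98, rank 30). Lamc1 (NM_010683, ENSMUSG00000026478; chromosome 1, 155066052 to 155179916) was already abundant in wild type, at 138 RPKM, and reached 303 RPKM (log2 ratio 1.13, and 0.91 when centred by gene span). Lamb1, the beta 1 chain that joins them in the trimer laminin-111 and no member here, went from 35.2 to 347 RPKM (3.26). Lama1 was thus at 0.132 times the level of Lamc1 in wild type and at 0.995 times in the knockout. Among the 5 laminin alpha genes, Lama1 made up 18.9% of the summed RPKM in wild type and 81.8% in the knockout. Lama5, which encodes the alpha 5 chain, took 77.0% and 18.1% while its own level hardly differed (73.8 and 66.6 RPKM). Lama3 was the 1 laminin gene that was at least 2-fold lower, at 3.85 and 0.369 RPKM. RPKM scales by transcript length, so levels of different genes are comparable within a library as far as that scaling holds.

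**Figure D2:**
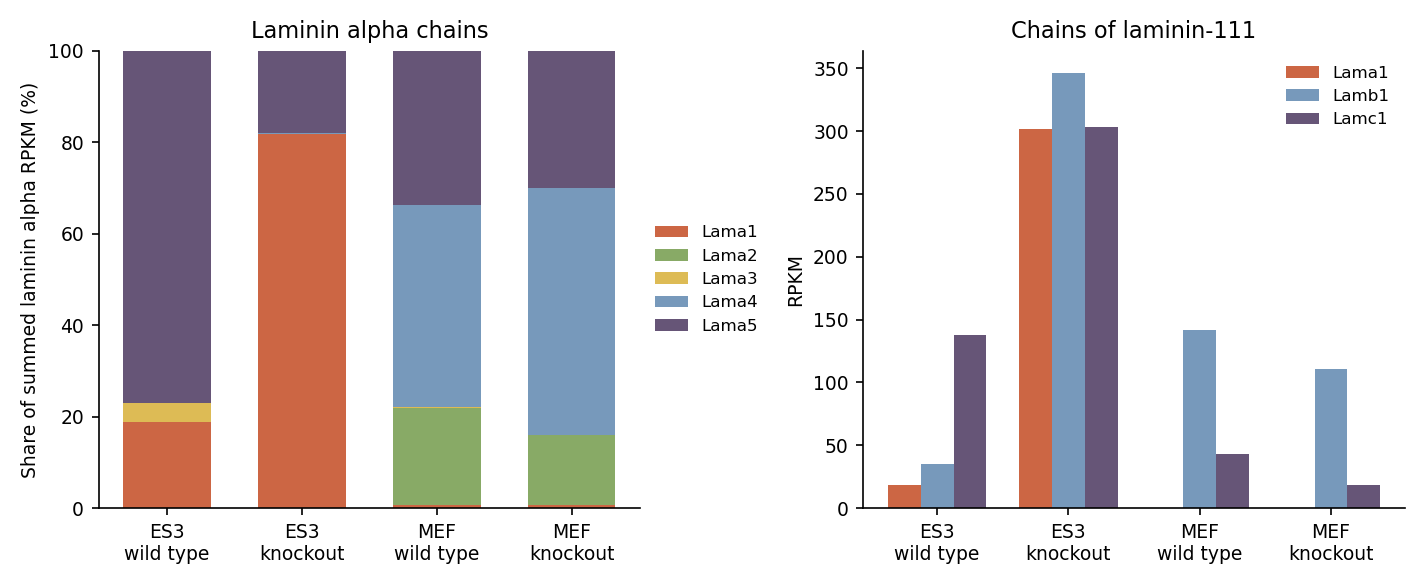
Left, the share of each laminin alpha gene in the summed RPKM of all 5 alpha genes, in percent, in each of the 4 RNA libraries; right, RPKM of the 3 genes of laminin-111 in the same libraries, 1 library per bar. Lama1 makes up most of the alpha chains in the ES3 knockout alone, where the 3 bars of laminin-111 reach 302, 347 and 303 RPKM; in both MEF libraries it makes up under 1%.

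The 2 linkers changed least. Nid1 (NM_010917, ENSMUSG00000005397; chromosome 13, 13529958 to 13604521) had 29.4 RPKM without and 53.0 RPKM with the knockout (log2 ratio 0.83). Hspg2 (NM_008305, ENSMUSG00000028763; chromosome 4, 137024684 to 137126545) stood at 82.4 and 129 RPKM (0.63). Both lay within 2-fold, and 83.3% and 77.5% of measured genes had lower ratios. Beside its paralog Nid2 (57.0 and 93.8 RPKM), Nid1 held 34.0% of the summed nidogen RPKM in wild type and 36.1% in the knockout.

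Across the 8 genes, a lower wild-type level mostly went with a larger ES3 gain (rank correlation −0.881 over 8 genes, which share both libraries). The wild-type level enters both quantities and the members were chosen on this gain, so nothing is read from that value. The wild-type levels reached from 2.83 RPKM for Col4a2 to 138 RPKM for Lamc1, a 48.7-fold range. The knockout levels reached from 53.0 RPKM for Nid1 to 544 RPKM for Sparc, a 10.3-fold range. Summed over the 8 genes, RPKM went from 325 to 2173, or from 0.102% to 0.709% of all RPKM in the library.

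In fibroblasts 3 of 7 measured members were at least 2-fold lower in the knockout, against 4.84% of 10805 measured genes, and the other 4 lay within 2-fold. None was at least 2-fold higher, against 0.981%. The fibroblast change was part of how the genes were chosen, so nothing is read from that count. The members' median log2 ratio was −0.48, against 0.00 over all measured genes. The 8th gene, Lama1, was under 1 RPKM in both fibroblast libraries (0.101 and 0.0491 RPKM) and was not measured.

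The 3 lower genes were those with the smallest ES3 gain. Hspg2 had 94.9 RPKM in the wild-type and 34.6 RPKM in the knockout library, a log2 ratio of −1.43 that only 0.925% of measured genes undercut. Nid1 stood at 157 and 66.2 RPKM (−1.23) and Lamc1 at 43.4 and 18.5 RPKM (−1.19). The collagen IV pair differed less, with 347 and 249 RPKM for Col4a1 (−0.48) and 277 and 217 RPKM for Col4a2 (−0.35). Sparc, at 993 and 989 RPKM (−0.01), and Serpinh1, at 330.2 and 349.9 RPKM (0.08), were at nearly the same level in both libraries. Col4a1 stood at 1.25 times Col4a2 in wild-type and 1.15 times in knockout fibroblasts. Nid1 stood at 3.62 and 3.57 times Lamc1.

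Fibroblast ratios ran with gene span, the length of the locus in the genome, and most of the 8 genes are long. The rank correlation of span and ratio across measured genes was −0.543 in MEFs and 0.074 in ES3 cells (genes are not independent replicates). Spans were 7.68 kb for Serpinh1, 25.6 kb for Sparc and between 74.6 and 136.5 kb for the other 6. Ratios were therefore also centred on the median of genes of like span, in 20 bins. Centred in this way no member was at least 2-fold lower in MEFs, against 2.65% of measured genes, none was higher, against 0.805%, and the members' median was −0.21. Hspg2 then had −0.92, Nid1 −0.84 and Lamc1 −0.74, and 3.52%, 5.56% and 7.96% of the genes in their span bins had lower ratios. Col4a1 (−0.03), Col4a2 (0.09) and Sparc (−0.03) lay near the middle of their bins, and Serpinh1 at −0.21. Lamc1 and Col4a1 have nearly the same span, 113.9 and 114.4 kb, and fall in the same bin. The part of gene span in these ratios was not tested further.

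**Figure D3:**
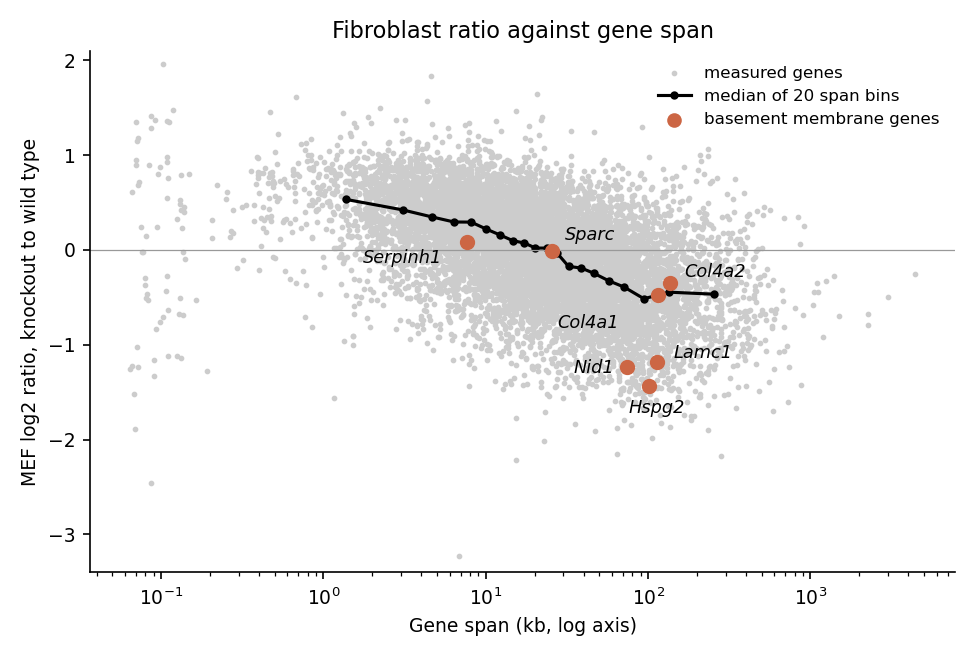
Log2 ratio of knockout to wild-type MEFs against gene span in kb on a log axis, for all measured genes (grey), the median of each of 20 span bins (black line) and the 7 measured basement membrane genes (orange). Col4a1, Col4a2 and Sparc lie on or near the line, Serpinh1 lies below it, and Lamc1, Nid1 and Hspg2 lie furthest below it.

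Set side by side, the ES3 and fibroblast values went in opposite directions for 6 of the 7 genes measured in both tables, all but Serpinh1, though Sparc was nearly level in MEFs (−0.01). With the span centring the MEF value of Col4a2 (0.09) was above 0 and that of Serpinh1 (−0.21) below it. Of 9932 genes measured in both tables, 29.6% were likewise above 0 in ES3 cells and below 0 in MEFs. Lamc1 was the 1 member at least 2-fold higher in ES3 cells and at least 2-fold lower in MEFs, as were 0.614% of those genes. With the span centring it passed 2-fold in neither, at 0.91 in ES3 cells and −0.74 in MEFs. The difference of the log2 ratios, ES3 minus MEF, was 6.45 for Col4a1 and 6.42 for Col4a2, 4.42 for Serpinh1, 3.67 for Sparc, 2.32 for Lamc1 and 2.06 for both Nid1 and Hspg2. These differences have no error, with 1 library on each side, and were not tested. The 2 tables were scaled separately, so levels are not compared between them.

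**Figure D4:**
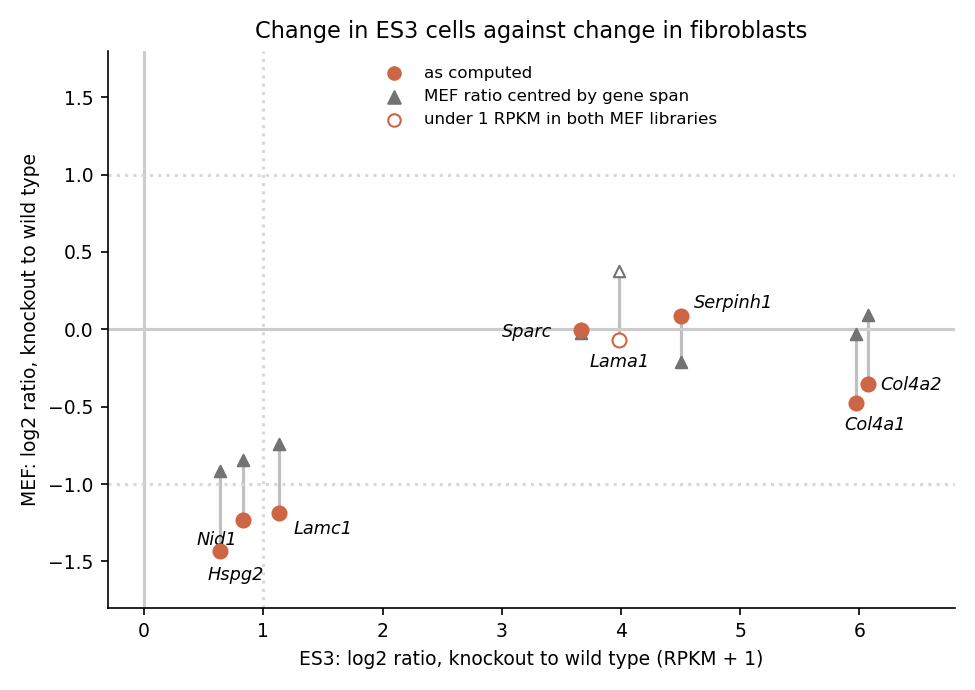
Log2 ratio of knockout to wild type in MEFs (vertical) against that in ES3 cells (horizontal) for the 8 genes; circles are ratios as computed, triangles have the MEF value centred by gene span, the open symbols are Lama1, and dotted lines mark 2-fold. Lamc1, Nid1 and Hspg2 form the group at the lower left, below −1 in MEFs before centring and between −0.92 and −0.74 after it.

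H3K9me3 regions and KAP1 peaks were mapped in ES3 cells, in 6 deposited lists without replicates, so they bear on the ES3 contrast alone. The labels add that at the knockout time point H3K9me3 had dropped without being gone. The collagen IV pair had none of these features within 100 kb of either start. The nearest wild-type H3K9me3 region lay 291 kb from the start of Col4a1 and the nearest KAP1 peak called over input 249.9 kb away. The nearest knockout H3K9me3 region lay 218.5 kb from the start of Col4a1 and 82.1 kb from the gene body of Col4a2. No region or peak of any of the 6 lists touched either gene. Sparc and Hspg2 were also far from wild-type H3K9me3, at 109.8 and 221 kb, and from KAP1 peaks over input, at 271 and 503 kb. A peak called in knockout chromatin, where the Trim28 gene was deleted, lay inside Hspg2 (chromosome 4, 137053094 to 137053583).

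Counted within 20 kb of the gene start, the members did not stand apart. A wild-type H3K9me3 region lay near 2 of 8 starts, those of Nid1 and Serpinh1, against 24.4% of all genes. A region found in wild type only lay near 1 of 8, Serpinh1, against 17.2%, and a knockout region near 1 of 8, Nid1, against 24.3%. A KAP1 peak over input lay near 1 of 8, Nid1, against 6.94%, and a KAP1 peak called over the knockout near the same gene, against 4.93%. A peak called in knockout chromatin lay near none of the 8, against 4.85%.

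The counts grew with the window, for the members and for all genes. Within 10 kb, 50 kb and 100 kb a wild-type H3K9me3 region lay near 1, 4 and 4 members, against 13.5%, 47.3% and 69.3% of genes. For wild-type-only regions the counts were 0, 3 and 3, against 8.74%, 36.1% and 57%, and for knockout regions 1, 3 and 4, against 14.1%, 46.6% and 70%. KAP1 peaks over input were near 1, 2 and 2 members, against 3.59%, 16.6% and 29.3%, and those over the knockout near 1, 1 and 2, against 2.6%, 12.2% and 22.1%. Peaks in knockout chromatin were near 0, 3 and 3, against 2.64%, 11.7% and 21.5%. Inside the gene, wild-type H3K9me3 regions touched 3 members (Lama1, Lamc1 and Nid1), against 16.9%, wild-type-only regions 1 (Lamc1), against 11.9%, and knockout regions the same 3 as wild type, against 19%. A KAP1 peak over input touched 1 (Lama1), against 6.07%, one over the knockout 1 (Lamc1), against 4.74%, and one in knockout chromatin 3 (Lama1, Nid1 and Hspg2), against 4.62%. Most members are long genes. Per megabase of gene, they held 7.14 wild-type and 8.57 knockout H3K9me3 regions, against 7.49 and 9.43 over all genes, and 5.72 peaks of knockout chromatin, against 0.976. With 8 genes these counts are small.

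Serpinh1 had the 1 wild-type-only region within 20 kb. It spans 674 bp (mm9 chromosome 7, 106484931 to 106485604) and lies 16.0 kb from the start, past the end of the gene by 8.34 kb. The nearest knockout H3K9me3 region was 406 kb away, and the nearest KAP1 peak over input 187 kb.

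Nid1 had features on both sides of its start. A KAP1 peak (chromosome 13, 13523284 to 13524001) lay 5.96 kb upstream in both wild-type lists, with the authors' score of 75.02 over input and 73.47 over the knockout. Wild-type H3K9me3 regions lay 6.49 kb (1644 bp long) and 16.4 kb (1109 bp) inside the gene. Knockout regions lay 6.27 and 16.7 kb inside it, overlapping both, with another at 11.2 kb and one 1.13 kb upstream of the start. Within 100 kb of the start Nid1 had 9 wild-type and 10 knockout H3K9me3 regions, and the wild-type-only list held 5. As many or more were found for 5.66%, 4.84% and 7.32% of all genes. Peaks called in knockout chromatin lay 24.7 and 50.7 kb inside the gene.

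Around Lamc1 fewer H3K9me3 regions were listed in the knockout. Within 100 kb of its start lay 14 wild-type and 6 knockout regions, and the wild-type-only list held 11. The median over all genes was 1 in each list. As many regions or more were found for 2.24% of genes in the wild-type list and 9.88% in the knockout list. For the wild-type-only list the share was 0.617%. Both wild-type regions inside the gene (155096204 to 155097023 and 155144626 to 155145218) were also in the wild-type-only list. Inside the gene lay 1 knockout region (155143994 to 155144525), which ends just before the wild-type-only region at 155144626 begins. A KAP1 peak called over the knockout (155126261 to 155126795, score 63.07) lay 53.1 kb inside Lamc1. The list of KAP1 peaks over input held none in Lamc1, and its nearest peak lay 281 kb from the start. The log2 ratio of Lamc1 RNA in ES3 cells was 1.13, and its relation to these regions and this peak was not tested.

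Lama1 held a peak that was called in wild-type and in knockout chromatin. At 44.0 kb inside the gene a peak of the KAP1 list over input (chromosome 17, 68090565 to 68091043, score 54.66) covered a wild-type H3K9me3 region (68090624 to 68090994). The knockout lists held an H3K9me3 region (68090627 to 68090964) and a peak (68090564 to 68091044, score 60.31) at the same position, and another knockout H3K9me3 region lay 23.0 kb inside the gene. The list of KAP1 peaks called over the knockout held none in Lama1. Whether these positions are exonic or intronic was not analysed here, since no mm9 annotation of exons was used.

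**Figure D5:**
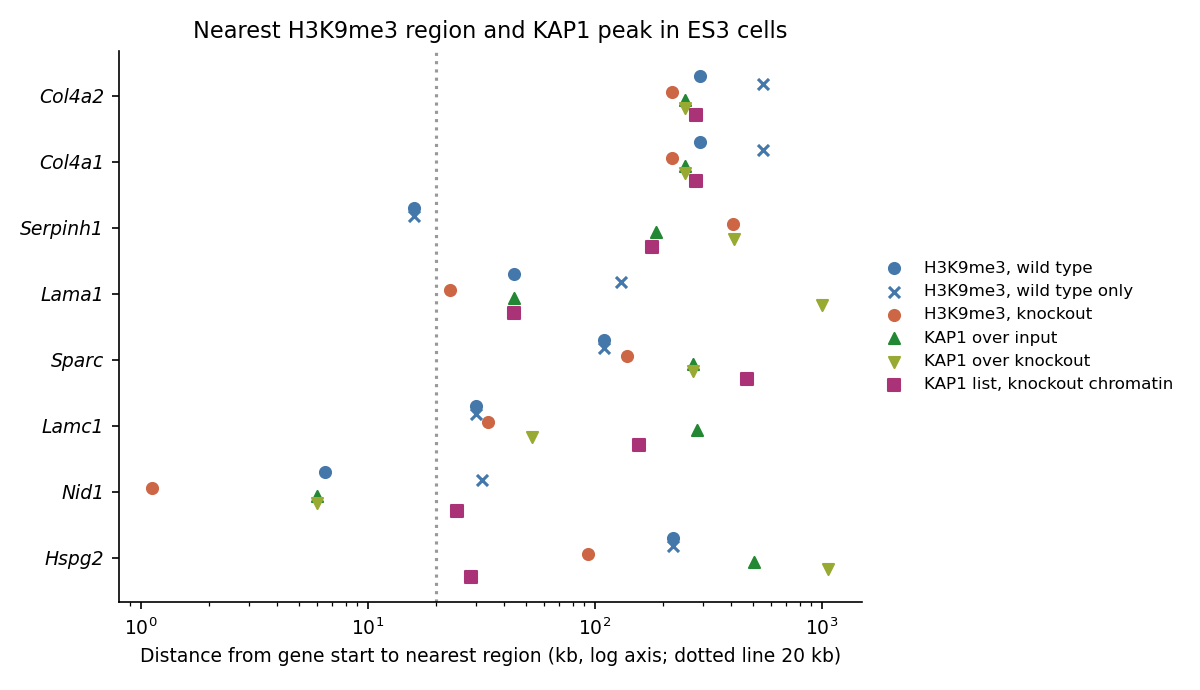
Distance in kb, on a log axis, from the start of each of the 8 genes to the nearest feature of the 6 deposited ES3 lists, with genes ordered by ES3 ratio from the top; the dotted line marks 20 kb. Col4a2 and Col4a1, at the top, have no symbol below 200 kb, and Nid1 and Serpinh1 are the only rows with symbols left of the line.

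Other basement membrane components were taken from a list that was not restricted to genes with an ES3 gain, so it is not set against the members. Of 32 such genes in the ES table, 17 were measured, 4 were at least 2-fold higher (12.5% over all genes), 1 was lower (3.18%), 12 lay within 2-fold and the median log2 ratio was 0.24; 3 passed the filter only through the knockout. Tinagl1, a matricellular protein, stood at 0.394 and 29.1 RPKM (4.43), followed by Lamb1 (3.26), the netrin gene Ntn4 (1.38) and the nephronectin gene Npnt (1.17, and 0.99 centred by span, which leaves 3 higher). Lama3 (−1.82) was the lower gene. The proteoglycan genes Agrn (60.5 and 66.5 RPKM) and Col18a1 (52.2 and 40.3 RPKM) differed little. The remaining collagen IV genes, Col4a3 to Col4a6, were under 1 RPKM in both ES3 libraries. In MEFs 3 of 18 were lower (4.84% over all genes) and none was higher (0.981%), with a median of −0.37 (−0.09 centred by span): Lama2 (−1.07), Nid2 (−1.03) and Lama5 (−1.01). None of the 3 passed 2-fold after the centring.

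Among genes for the folding, export, modification and cross-linking of collagen, 11 of 26 measured were at least 2-fold higher in knockout ES3 cells (12.5% over all genes). Another 15 lay within 2-fold and none was lower (3.18%), with a median of 0.87. Of the 26, 4 passed the filter only through the knockout. P4ha2 (2.28 and 41.8 RPKM, 3.70) and P4ha1 (3.70 and 30.7 RPKM, 2.76) encode subunits of prolyl 4-hydroxylase. Loxl2, an oxidase that cross-links collagen IV, stood at 1.72 and 25.5 RPKM (3.28), the lysyl hydroxylase gene Plod2 at 4.00 and 36.2 RPKM (2.90). In MEFs 1 of 26 was lower (4.84% over all genes), Pxdn (−1.03, and −0.63 centred by span), which encodes the peroxidase that forms the sulfilimine bond of collagen IV. The median was −0.18. With the span centring the lower gene was instead Lox (−0.95 before and −1.17 after), and the median was −0.11.

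Receptors for laminin and collagen were higher in 9 of 15 measured cases (12.5% over all genes) and lower in none (3.18%), with a median of 1.21 in ES3 cells. Of the 15, 1 passed the filter only through the knockout. The integrin genes Itgb1 (26.8 and 91.0 RPKM, 1.73) and Itga3 (23.2 and 77.5 RPKM, 1.70), the syndecan gene Sdc2 (1.62) and Parva, which encodes an adaptor of integrin-linked kinase (3.32), had the largest ratios. In MEFs 3 of 16 were lower (4.84% over all genes), Itga6 (−1.10), the dystroglycan gene Dag1 (−1.08) and the collagen receptor gene Ddr2 (−1.01), with a median of −0.40. None of them passed 2-fold with the span centring, and the median was then −0.30. Proteases and inhibitors had 12 of 16 higher (12.5% over all genes) and none lower (3.18%) in ES3 cells, with a median of 1.76. Through the knockout alone 5 of the 16 passed the filter. Among the higher genes were Plat, which encodes tissue plasminogen activator (3.74), the metalloprotease inhibitor gene Timp3 (2.72) and the membrane-type metalloprotease gene Mmp15 (2.33). In MEFs Adamts1 alone was lower (−1.03, and −1.25 centred by span), against 4.84% over all genes, and the median of 16 genes was −0.08.

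For regulators and markers of the endoderm, many ES3 calls rest on genes under 1 RPKM in wild type, and such genes had to differ to be counted as measured. Over all measured genes 12.5% were higher and 3.18% lower in ES3 cells, and 0.981% and 4.84% in MEFs. All 8 listed transcription factors were at least 2-fold higher (median 3.32), 7 of them measured only through the knockout, with Gata4 at 0.649 and 49.5 RPKM, and 1 was measured in MEFs, Gata6 (2.78 and 2.33 RPKM). All 9 parietal endoderm markers in the table were higher (median 2.91), 5 of them through the knockout alone, led by the proteoglycan gene Srgn (5.75) and the parathyroid hormone receptor gene Pth1r (4.22), with Lamb1 also in this list. Of 12 visceral endoderm markers 7 were measured, 5 of them through the knockout alone, with a median of 3.32 and 6 higher, led by the endocytic receptor gene Cubn (4.58) and Amn (4.17), and 1 lower, Trf (−1.14). The other 5 stayed under 1 RPKM in both libraries, among them Afp, Apoa1 and Apoa4, which were at 0 in wild type. In MEFs none of 6 parietal markers (median −0.23) and none of 3 visceral markers (median −0.55) passed 2-fold.

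Trim28 itself was at 1051 and 37.2 RPKM in the ES3 and at 62.8 and 5.84 RPKM in the MEF libraries. For the lists that follow, the shares over all measured genes were 12.5% higher and 3.18% lower in ES3 cells. In MEFs they were 0.981% and 4.84%. After the span centring they were 10.7% and 3.93% in ES3 cells and 0.805% and 2.65% in MEFs. The ES label was checked on 10 pluripotency markers, all measured in both ES3 libraries; their summed levels were 2581 and 1331 RPKM, with 5 lower, none higher and a median of −1.02. The MEF label was checked on 12 fibroblast markers, of which 11 were measured, with summed levels of 4984 and 4970 RPKM a median of −0.11, and Postn the 1 lower gene (−1.56). In ES3 cells the same 12 summed to 16.7 and 35.0 RPKM, with 6 measured, 3 of them through the knockout alone, a median of 0.88, 2 higher (Col1a1 and Col3a1), and Postn at 0 in wild type. Interstitial collagens in ES3 cells had 6 of 13 measured, 5 through the knockout alone, all 6 higher (median 1.81; 5 higher after the span centring, without Col2a1), and summed to 3.86 and 31.4 RPKM; in MEFs they summed to 3889 and 2996 RPKM, with 3 of 12 lower, Col12a1 (−1.83), Col2a1 (−1.03) and Col11a1 (−1.01), and a median of −0.29. Centred by span, 1 of these 12 was lower, Col12a1 (−1.38), and the median was −0.09. Endothelial markers, from another cell type that makes basement membrane, summed to 25.6 and 40.9 RPKM in ES3 cells over 9 genes, with none at 0. Of the 9, 4 were measured through the knockout alone, and the median was 1.15. There were 5 higher (led by Cdh5, 2.69) and 1 lower, Vwf (−1.19), while Tek (−0.94) and Pecam1 (−0.77) lay below 0 within 2-fold. Centred by span, 5 were higher and 2 lower, Vwf (−1.42) and Tek (−1.16). In MEFs 2 of the 9 endothelial and 2 of the 10 pluripotency genes were measured and none passed 2-fold. In bulk RNA more cells of a type and more RNA per cell cannot be told apart, and the part of other cell types in the members' values was not tested.

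The members' median ratios were 3.82 in ES3 cells and −0.48 in MEFs. Euclidean distance from this pair of ratios was taken for 9925 other genes measured in both tables. The nearest included the protease gene Ctsh (3.83 and −0.35, distance 0.125), the growth factor gene Igf2 (3.65 and −0.36, 0.205), Plat (3.74 and −0.23, 0.262), the annexin gene Anxa1 (3.92 and −0.22, 0.279) and the prostaglandin transporter gene Slco2a1 (3.66 and −0.19, 0.332). In wild-type ES3 cells Ctsh (0.237 RPKM), Igf2 (0.805), Plat (0.393) and Anxa1 (0.166) were under 1 RPKM. They were thus measured there only through the knockout. The medians come from values on which the members were chosen, so nothing is read from these neighbours. Of the genes named, Plat is also in the protease and parietal endoderm lists above.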

How the data were processed

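RNA was measured in 4 libraries and chromatin in ES3 cells. The tool listed is Bowtie and the build mm9, per the submitters' processing notes. Tool roles and versions, and the read counter, are not stated in the labels or file headers. Expression values were deposited by the authors as RPKM per RefSeq transcript in 2 tables, with 22631 and 22630 rows, and a ratio of knockout to wild type that equals the quotient of the RPKM columns and was not used further. The ES table names its columns only WT and KO. They were read as the ES3 pair because the labels call the Rex1GFP pair WT and KD, and all ES3 RNA values rest on that reading. Reads per library are unknown. H3K9me3 lists hold positions alone. KAP1 peaks carry MACS names and a score by the authors whose scale is not stated (lowest 50.01).

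Each symbol was represented by its transcript of highest mean RPKM; 820 and 817 rows with a blank or date-like symbol took the RefSeq symbol or transcript name. Measured genes reached 1 RPKM in 1 or both libraries of a table. Log2 ratios used a pseudocount of 1 RPKM and calls a 2-fold threshold. A gene was near a region within 20 kb of its start. Alternatives were pseudocounts of 0.1 and 5 RPKM, other filters, centrings, transcripts and thresholds, and windows of 10, 50 and 100 kb. Python 3.11.15 with pandas 2.3.3 was used, and the scripts were tested on simulated data.

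The 8 members and 11 further lists were chosen with earlier results of these data known. The lists are not independent: Lamb1, Plat, Hnf4a, Fbln1, Col1a1, Col1a2 and Col3a1 each stand in more than a single list. Named genes are the members, Trim28, up to 4 measured genes per list and table with the largest absolute ratio, and the 6 genes nearest in pattern. One gene that this rule names is not reported here. Others (Agrn, Col18a1, the further collagen IV genes, and laminin or nidogen genes and list members named outside that rule) were chosen after their values were seen. Rex1GFP RNA, H3K27ac and input libraries were not analysed here.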

Additional observations from a re-analysis of the deposited data

Results flagged for a closer look

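Of the 7 members measured in both cell types, 6 stood above 0 in ES3 cells and below 0 in MEFs, with 1 library per condition. Of 9932 genes measured in both, 29.6% did likewise. Both contrasts were part of how the members were chosen, so nothing is read from that count. The difference of the log2 ratios, ES3 minus MEF, was 6.45 for Col4a1, 6.42 for Col4a2, 3.67 for Sparc, 2.32 for Lamc1, 2.06 for Nid1 and 2.06 for Hspg2. The difference was not tested. The MEF value of Sparc was −0.01, and the span centring took that of Col4a2 to 0.09.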

How the results depend on the processing

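With 1 library per condition, no replicate could be left out, and no paired analysis was possible because no group has more than 1 library. A value was taken as moved where it changed by over 1.5 times. The ES3 count of 6 higher members became 5 with the span centring and with a 3-fold threshold and was 6 under the other 6 alternatives; the ES3 median ran from 3.64 to 3.87. The MEF count of 3 lower members became 0 with the span centring and 0 with a 3-fold threshold, and was 3 under the other 6; the MEF median ran from −0.48 to −0.21. A pseudocount of 5 RPKM took Col4a1 to 5.30 and Col4a2 to 5.06 in ES3 cells. Members near a wild-type H3K9me3 region numbered 1 at 10 kb, 4 at 50 kb and 4 at 100 kb; near a wild-type-only region 0, 3 and 3; near a knockout region 3 at 50 kb and 4 at 100 kb; near a KAP1 peak over input 2 at 50 kb and 2 at 100 kb; and near a KAP1 peak over the knockout 2 at 100 kb. Wider windows take in more genes of any kind. Depth is unknown, so no counting error can be given.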
